A study of Mus musculus with 4 samples.

Results

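The genes described here carry and restrain fibroblast growth factor (FGF) signalling in the lens. They are the receptors Fgfr1, Fgfr2 and Fgfr3, the docking protein gene Frs2, the feedback inhibitors Spry1, Spry2, Spred1 and Dusp6, and the ETS transcription factors Etv4 and Etv5. The 10 genes were picked by name, and every probe that carries 1 of these symbols was taken, whatever its value. That gave 17 probes for 9 of the 10 genes. A total of 8 genes had a probe above background on at least 2 arrays and were tested among 11516 genes in all.

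The lens keeps its epithelial cells at the front and turns them into elongated fiber cells near its equator, and FGFs are among the main signals for fiber differentiation. An FGF, held by heparan sulfate, brings receptor tyrosine kinases together, the docking protein FRS2 is phosphorylated, and the signal passes through Ras to the ERK kinases. The ETS factors ETV4 and ETV5 are transcribed in response and are widely used as readouts of the pathway. Sprouty and SPRED proteins and the ERK phosphatase DUSP6 are also induced by the signal and damp it.

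RNA of 4 mouse lenses at postnatal day 6, with 1 lens for each array, was measured on Illumina MouseWG-6 v2.0 BeadChips, on which every probe gives 1 fluorescence intensity. The Celf1 cKO mice (n = 2, replicates A and B) carried a Celf1 lacZ knock-in allele, a floxed Celf1 allele and the Pax6GFPCre transgene, which is active in the lens and pancreatic lineages. The Control mice (n = 2, replicates A and B) carried the lacZ knock-in allele beside a normal allele, so that both groups had 1 disrupted allele of Celf1, the gene of an RNA-binding protein. Both genotypes were of mixed C57BL/6 and FVB background, and whether the Control mice carried Cre is not given in the sources used here. The comparison asks how the genes of the FGF pathway differ between lenses of the Celf1 cKO and Control mice.

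Celf1 itself stood at a log2 signal of 7.45 and 6.95 in the cKO lenses, against 8.71 and 8.55 in the Control lenses. It was reduced by a log2 fold change of -1.43 ± 0.19 (standard error, SE; limma, adjusted p = 0.00978). Where its 4 probes lie relative to the floxed exon was not determined, so this level does not measure the deletion itself. The cKO arrays were brighter, with 16261 and 16925 probes above background against 14542 and 14180 on the Control arrays, and the values below were therefore quantile normalized. Sex-linked transcripts differed with genotype as well, since Xist was at least 6.09-fold higher in the cKO group, where alone it was above background, and Y-linked Ddx3y stood at 6.81 and 4.82 in cKO against 8.99 and 8.82 in Control lenses. The sex of the mice is not in the labels, so sex and genotype cannot be told apart for any gene below. Of the lens markers, 5 of 6 epithelial genes were tested and 1 (Foxe3) was reduced, and 7 of 9 fiber genes were tested and 3 (Bfsp2, Dnase2b and Birc7) were reduced. The summed level of the epithelial list ranged from 710 to 946 in the cKO lenses and from 839 to 1145 in the Control lenses on the linear scale, and that of the fiber list from 85220 to 90185 and from 101952 to 103548, a sum made up mostly by Mip and Crygd, which are among the brightest probes. The epithelial marker Pax6 and the fiber marker Gja3 were above background on no array. A change in the share of a cell type and a change of RNA per cell cannot be told apart in whole lenses. No gene of the retina, pigment cell, cornea or muscle lists passed the filter, but on cKO B alone 1 of 7 retina, 2 of 5 pigment cell, 2 of 3 cornea and 1 of 4 muscle markers were above background. None of the tested blood, vessel and pericyte markers (2, 4 and 1 genes) was called. Of 5 macrophage markers, 2 were tested, and they did not move alike. Cd68 was called elevated (at least 1.26-fold) but passed the filter only through the cKO arrays. Csf1r had a log2 fold change of -0.11 and was not called (limma, adjusted p = 0.640). Lyz2 was above background on cKO B and Control B only, and Adgre1 and Ptprc on no array. The summed level of the list, which includes Cd68, was 114 and 121 in cKO against 103 and 108 in Control lenses.

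Each probe is a 50-base oligonucleotide taken from a stretch of the mature transcript, so that genes with several probes were measured at several places. The first 30 bases of the probes are shown for 3 genes in which the place of the probes bears on the result. The Fgfr3 probes lie far apart on 1 transcript. The estimates of the Fgfr2 probes differ in sign, and the Etv5 probes overlap. Each name gives the base of the transcript record at which the probe starts, and capitals mark the run that the shown parts of both Etv5 probes have in common.
Fgfr3 probe 1463: agctgtgatactctgccgcctgcgcagtcc
Fgfr3 probe 2625: agctccagctcgtccggagatgactcggtg
Fgfr2 probe 1613: ctggagatgatgaggacgacacagatagct
Fgfr2 probe 1839: caatgcagaagtgctggctctgttcaatgt
Fgfr2 probe 3347: gagtgaatgtgtcttcctgtccccaaacag
Fgfr2 probe 4666: ttgctttggatacgcccactcactttgcta
Etv5 probe 3122: ggAATTTGCTGTCCTTGACACTCCACACAT
Etv5 probe 3124: AATTTGCTGTCCTTGACACTCCACACATtg
The files place the Fgfr3 probes at chr5:34075468-34075517 and chr5:34078123-34078172 on the plus strand. The Fgfr2 probes are placed on the minus strand of chromosome 7, from chr7:137384729-137384778 for probe 1613 to chr7:137306105-137306154 for probe 4666. The files name no genome build, and whether a probe lies in coding sequence or an untranslated region was not determined here.

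Among the 8 tested genes, Fgfr3 alone was called, and it was reduced in the cKO lens. A gene counted as called when its adjusted p was under 0.05, its log2 fold change exceeded 0.58 in size and its mean log2 signal exceeded 4.6. The share of called members, 1 of 8, is to be read against 11.6% of all genes called, with 5.64% reduced and 6.01% elevated. The median log2 fold change was 0.11 over the 8 members and 0.01 over all genes. The arrays of the 2 groups did not overlap for 6 of the 8 members, with the cKO arrays above in 4 (Fgfr1, Spred1, Dusp6 and Etv4) and below in 2 (Fgfr3 and Etv5). Of all genes tested, 62.3% had groups that did not overlap, so this share is no result about the members.

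**Figure D1:**
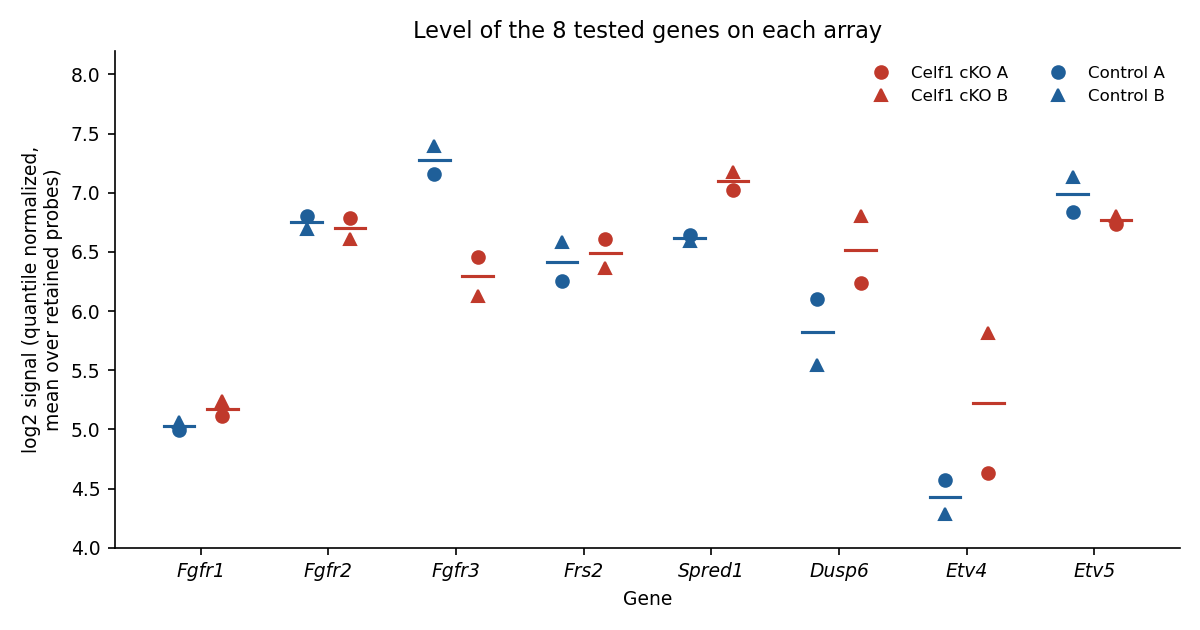
Log2 signal (vertical axis, quantile normalized, mean over the retained probes of a gene) of the 8 tested genes (horizontal axis) on each of the 4 arrays, with red for Celf1 cKO, blue for Control, circles for replicate A, triangles for replicate B and short lines for the mean of each group. The cKO values of Fgfr3 (6.46 and 6.13) lie below the Control values (7.16 and 7.40), while those of Fgfr2 and Frs2 overlap between groups; levels of different genes come from different probes and are not comparable.

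The receptors bind FGF outside the cell and carry the tyrosine kinase inside it. Fgfr3 had a log2 signal of 6.46 on cKO A, 6.13 on cKO B, 7.16 on Control A and 7.40 on Control B. Both cKO lenses were thus below both Control lenses, and the gap between the groups was wider than the spread within either. The log2 fold change was -0.98 ± 0.17 (SE; 95% confidence interval -1.39 to -0.58; adjusted p = 0.0188), a 1.98-fold lower mean. The lens marker lists stood lower as well, with a median log2 fold change of -0.54 over the tested epithelial genes and -0.48 over the tested fiber genes, and their part in the Fgfr3 value was not tested.

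Both Fgfr3 probes shown above, 1463 and 2625, were called reduced, against 5.5% of all probes. Probe 2625 had log2 signals of 7.80 and 7.56 in cKO lenses against 8.61 and 9.14 in Control lenses, a log2 fold change of -1.19 ± 0.21 (adjusted p = 0.0167). Probe 1463 was dimmer, at 5.11 and 4.70 against 5.71 and 5.65, a log2 fold change of -0.77 ± 0.18 (adjusted p = 0.0374). The 2 changes differed by a log2 value of 0.42 (95% confidence interval -0.11 to 0.95; adjusted p = 0.402), a test chosen after the values were seen. Before any normalization, probe 2625 read 321.6 and 291.1 in cKO lenses against 355.5 and 393.8 in Control lenses. The groups did not overlap for that probe. Unnormalized probe 1463 read 68.0 and 57.9 against 76.3 and 62.6, and there the groups overlapped.

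The Fgfr3 call depended on both B arrays, and the number of calls over all genes also fell without either of them. Control B, where Fgfr3 was highest, also had the largest median standard error of the beads of a probe (7.26% of the intensity, against 4.36% to 4.40% on the 3 other arrays), and its part in the value was not tested. Without cKO B the log2 fold change was -0.80 (adjusted p = 0.131) and without Control B it was -0.91 (adjusted p = 0.0837), neither of which was called, whereas without cKO A or Control A it was called. Without scaling between arrays its log2 fold change was -0.32 (adjusted p = 0.204), beside a median of 0.57 over all genes. In that setting 5655 genes were called elevated and 133 reduced, against 692 and 649 with quantile normalization. Relative to the median of all genes, Fgfr3 stayed between -1.22 and -0.75 over the settings with all 4 arrays.

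Fgfr2, a receptor that lens cells use together with the other FGF receptors, had log2 signals of 6.79 and 6.61 in cKO lenses against 6.81 and 6.69 in Control lenses. The groups overlapped, and the log2 fold change was -0.05 ± 0.14 (95% confidence interval -0.39 to 0.29; adjusted p = 0.837). Its sign turned without cKO B (0.03) and without Control A (0.01). This mean joined 3 probes whose estimates differed in sign. Probe 1613, designed on transcript variant 1, stood at 5.44 and 5.51 in cKO and 4.99 and 5.05 in Control, a log2 fold change of 0.45 ± 0.15 (adjusted p = 0.0905). The brightest probe, 4666, stood at 9.48 and 9.22 in cKO and 9.76 and 9.65 in Control, a log2 fold change of -0.36 ± 0.17 (adjusted p = 0.190). Both probes separated the groups, with estimates of opposite sign, but neither was called. Of all genes tested, 62.3% had groups that did not overlap, so this separation is no result about the probes. Probe 1613 was close to background in Control lenses, at 59.7 and 52.4 before normalization. Probe 3347, designed like 4666 on transcript variant 2, overlapped between the groups and had a log2 fold change of -0.25 ± 0.19 (adjusted p = 0.407). The fourth probe, 1839, was above background on no array, with unnormalized intensities of 41.5 to 47.2.

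The change of Fgfr2 probe 1613 was 0.76 higher on the log2 scale than the mean of the 2 other retained probes (95% confidence interval 0.28 to 1.23). With adjustment over all 8163 probes of genes with several retained probes this did not pass (adjusted p = 0.111), while 170 of the 8163 did. This test too was chosen after the values were seen. Whether the probes tell the transcript variants apart was not determined.

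Fgfr1, the third receptor, was measured by 1 retained probe with log2 signals of 5.12 and 5.24 in cKO and 4.99 and 5.07 in Control lenses. The cKO values were higher by a log2 fold change of 0.15 ± 0.14 (95% confidence interval -0.18 to 0.47; limma, adjusted p = 0.502), which was not called. The probe was dim, at 68.3 and 75.6 in cKO and 59.7 and 52.7 in Control lenses before normalization. The interval leaves out the scaling, with which the value ran from -0.19 (equal medians of detected probes) to 0.57 (no scaling). The medians over all genes there were -0.19 and 0.57. Leaving out 1 array gave Fgfr1 values from 0.08 to 0.20. Its other probe was above background on no array. The change of Fgfr3 was not tested against that of Fgfr1 or Fgfr2.

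**Figure D2:**
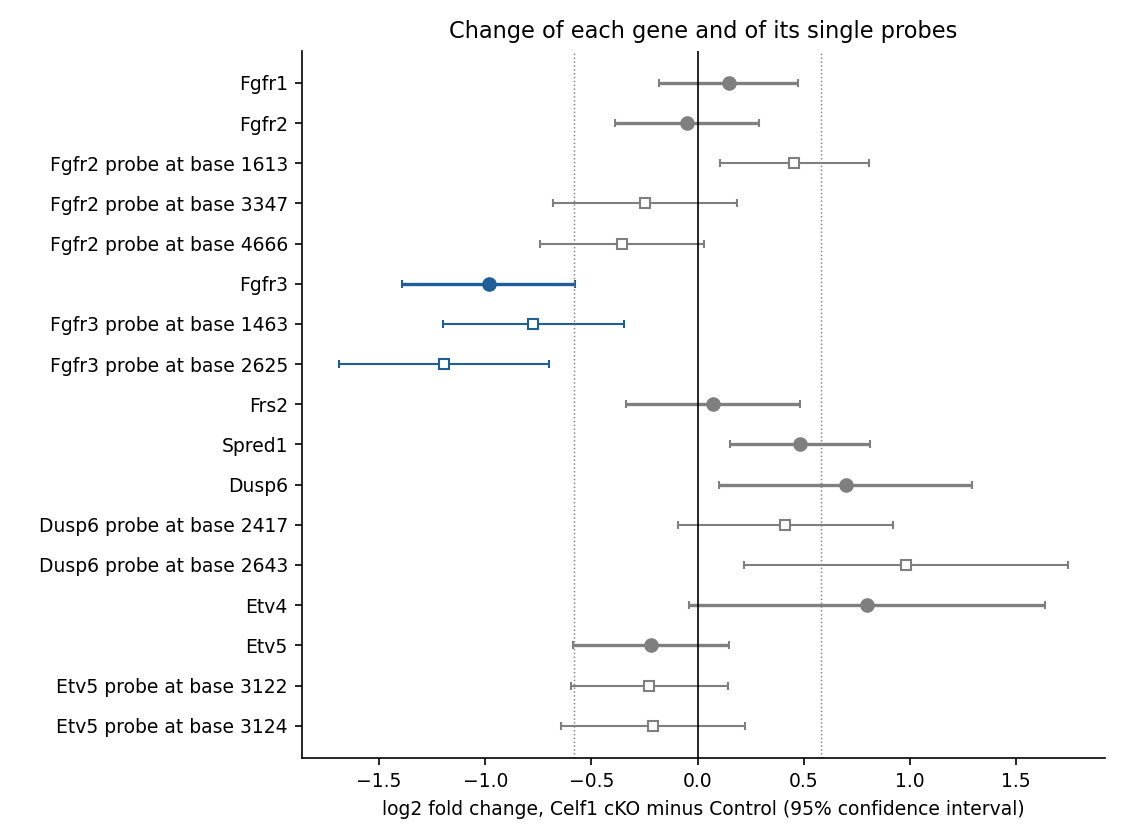
Log2 fold change of Celf1 cKO against Control (horizontal axis) with its 95% confidence interval from limma, for each tested gene (filled circles) and, for genes with several retained probes, for each probe by its starting base (open squares). Blue marks calls of reduced signal, grey marks no call and dotted lines stand at 0.58 in either direction; Fgfr3 and both of its probes are reduced (-0.98, -0.77 and -1.19), and the Fgfr2 probes lie on both sides of 0.

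FRS2 is the docking protein that links the activated receptor to Ras. Frs2 had log2 signals of 6.61 and 6.36 in cKO and 6.25 and 6.58 in Control lenses, so that the groups overlapped. The log2 fold change was 0.07 ± 0.17 (95% confidence interval -0.34 to 0.48; adjusted p = 0.807), and it turned to -0.05 without cKO A and to -0.09 without Control A.

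Of the feedback inhibitors, Spred1 and Dusp6 were tested, and neither was called. Spred1, which holds back the activation of Raf by Ras, had log2 signals of 7.03 and 7.17 in cKO and 6.64 and 6.59 in Control lenses. Both cKO lenses were above both Control lenses, and the replicates of each group lay close together. The log2 fold change was 0.48 ± 0.14 (95% confidence interval 0.15 to 0.81; adjusted p = 0.0643), which missed both the fold and the adjusted p of a call.

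Dusp6, which removes the activating phosphates from ERK, had log2 signals of 6.24 and 6.80 in cKO and 6.10 and 5.54 in Control lenses over its 2 retained probes. The groups did not overlap, but cKO A and Control A differed little, and most of the difference lay between the B arrays. The log2 fold change was 0.70 ± 0.25 (95% confidence interval 0.10 to 1.29; adjusted p = 0.112). Its bright probe, which starts at base 2643, read 265.2 and 545.9 in cKO lenses against 162.9 and 100.4 in Control lenses before normalization. After normalization that probe gave a log2 fold change of 0.98 ± 0.33 (adjusted p = 0.0923), and the dimmer one at base 2417, which was not above background on Control B, gave 0.41 ± 0.22 (adjusted p = 0.241). Leaving out 1 array at a time gave Dusp6 values from 0.40 to 1.003, and none was called, nor was the value of 1.20 from the deposited normalized table. Without Control B, the array with the lowest signal, the value was 0.43, and without cKO B, the array with the highest, it was 0.40.

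The Sprouty proteins block the pathway upstream of Raf. Spry2 had 1 probe, which read 42.1 and 44.8 in cKO and 48.2 and 44.7 in Control lenses and was above background on none of the 4 arrays. No probe carried the symbol Spry1. A predicted gene that the array's design calls similar to sprouty 1 had 2 probes, both above background on no array, with intensities from 35.2 to 49.5. These probes give no measure of Spry1 or Spry2 in the lens beyond a signal that did not exceed the negative controls.

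ETV4 and ETV5 are closely related ETS factors that switch on genes downstream of FGF. Etv4 read 54.6 and 102.5 in cKO lenses against 52.4 and 39.9 in Control lenses before normalization, and it was above background on the cKO arrays only, which alone brought it into the test. Its log2 signals were 4.63 and 5.82 against 4.57 and 4.28, so that 1 lens, cKO B, stood apart from the other 3. Against the lowest signal of detected probes on the Control arrays (4.72 and 4.76), the cKO mean of Etv4 stood 1.40-fold higher. This fold rests on cKO B, since cKO A (4.63) lay below that level, and it is no lower bound for the group. The difference was not called (log2 fold change 0.80 ± 0.35; limma, adjusted p = 0.173). The value moved with the processing and was 2.29 with the deposited normalized table and 0.40 with a background offset of 50, neither of them called.

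Etv5 had log2 signals of 6.73 and 6.80 in cKO and 6.84 and 7.13 in Control lenses. The cKO values were below both Control values, by a log2 fold change of -0.22 ± 0.16 (95% confidence interval -0.59 to 0.15; limma, adjusted p = 0.374). Leaving out 1 array gave Etv5 values from -0.37 (without Control A) to -0.08 (without Control B). Its 2 probes, which share a run of 31 bases over their whole length and are thus not separate measures of the gene, gave -0.23 ± 0.16 and -0.21 ± 0.19. Neither ETS factor was called, and the difference between them was not tested. Etv4 entered the test only through the cKO arrays, so the sign of its estimate cannot be set against that of Etv5. The highest signal of Spred1 and of Dusp6 was on cKO B, and the lowest was on Control B. Etv4 was highest on cKO B too, but it was above background on neither Control array, so its lowest array has no meaning. cKO B was also the array with single markers of cornea, pigment cells, retina and muscle above background, and their part in these levels was not tested.

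The scaling of the arrays set the level of all these changes. Without scaling, or with the medians of all probes made equal, Frs2, Spred1, Dusp6 and Etv4 were called elevated, with log2 fold changes of 0.79, 1.26, 1.23 and 1.04 without scaling, and Fgfr3 was not called. Of all genes, 49.1% were called elevated without scaling and 45.8% with equal medians, so that 4 of 8 is no result about the members. The fitted value of Etv4, which entered only through the cKO arrays, is no measured fold in any of these settings. Etv5 and Fgfr2 then turned positive, both at 0.56 without scaling. The median over all genes was 0.57 in the same setting, and with it taken off Spred1 stood at 0.69, Dusp6 at 0.66, Etv4 at 0.47, Frs2 at 0.22, Etv5 at -0.01 and Fgfr2 at -0.01.

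**Figure D3:**
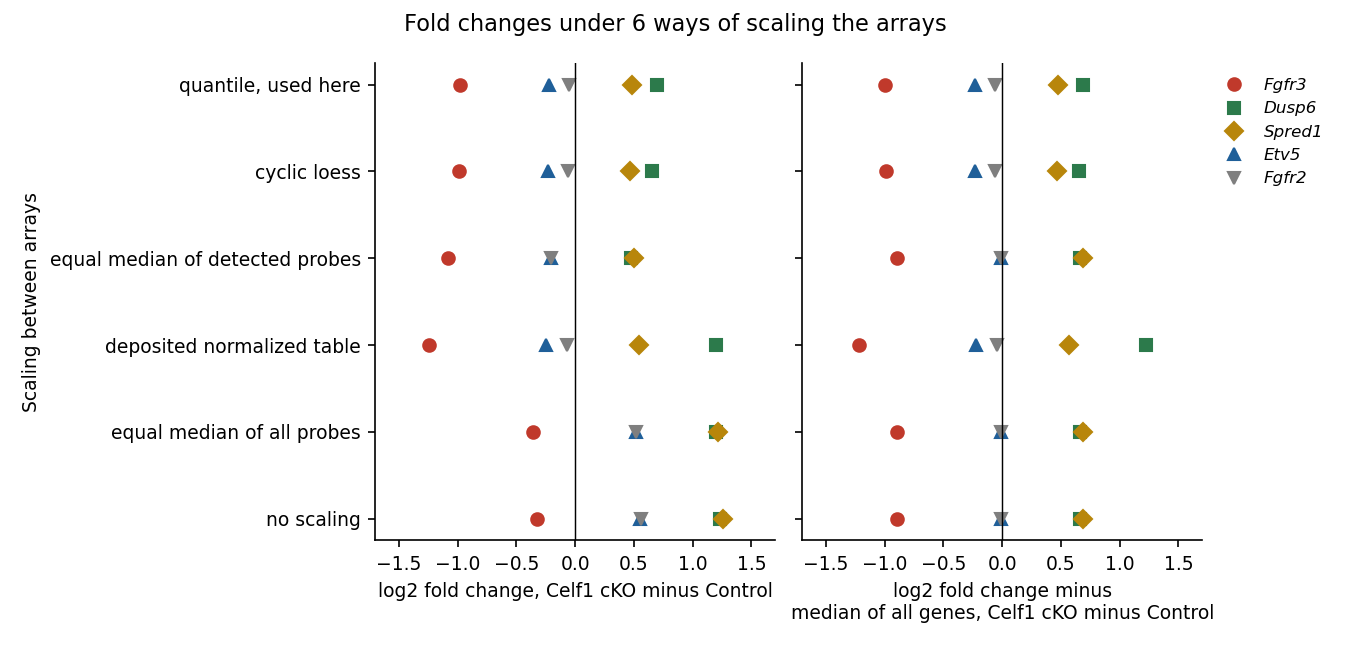
Log2 fold change of Celf1 cKO against Control for 5 genes under 6 ways of scaling the arrays (vertical axis), as fitted (left) and after the median of all genes under the same scaling is taken off (right); the deposited normalized table also has no background correction of the kind used here. Fgfr3 is lowest in every row, from -1.25 to -0.32 as fitted and from -1.22 to -0.90 relative to the median, while Fgfr2 and Etv5 cross 0 on the left only.

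Other genes of the FGF pathway were followed in 6 lists with 100 genes, of which 98 had a probe and 63 were tested. Of these 63, 5 were elevated and 4 reduced, which is 14.3% called beside 11.6% of all genes. The groups did not overlap for 38 of the 63 (60.3%, beside 62.3% of all genes). The median log2 fold change was -0.07 over the 63 and 0.01 over all genes. Of the 37 untested genes, 16 were FGFs. Pik3ca, 1 of the 5 elevated genes, passed the filter only through the cKO arrays, where it is high.

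In the list of other receptors and partners, 4 of 7 genes were tested and 1 was called. Fgfrl1, the FGF receptor that lacks a kinase domain, had log2 signals of 9.09 and 8.75 in cKO and 10.20 and 10.32 in Control lenses. Both cKO values were more than 1 log2 unit below the Control values, with a log2 fold change of -1.34 ± 0.16 (adjusted p = 0.00772). It was called in 3 of the 4 fits that left out 1 array and was not called without Control B (adjusted p = 0.0560). Its list had a median of -0.18.

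The FGF list had 6 of 22 genes tested, a median log2 fold change of -0.30 and 1 call. Fgf13, which belongs to the intracellular FGFs that do not act as secreted receptor ligands, fell by 0.68 on the log2 scale (adjusted p = 0.0279), from 5.45 and 5.53 in Control to 4.88 and 4.74 in cKO lenses, where 1 of its 2 probes was not above background on cKO B. None of the tested secreted FGFs (Fgf1, Fgf15, Fgf17 and Fgf22) was called. Each was below background on at least 1 array, and Fgf22 was above it in cKO lenses only.

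Heparan sulfate chains hold FGF at its receptor, and 17 of the 18 listed genes for their synthesis, editing and core proteins were tested, with 3 elevated and 0 reduced (17.6% called, beside 6.01% elevated and 5.64% reduced of all genes). Sulf2, an extracellular sulfatase that trims sulfate from the chains, stood at 6.67 and 7.25 in cKO and 5.84 and 5.48 in Control lenses, a log2 fold change of 1.30 ± 0.22 (adjusted p = 0.0183). Glce, the epimerase that modifies the growing chain, rose by 0.95 ± 0.15 (adjusted p = 0.0142). Sdc1, a syndecan core protein, rose by 0.74 ± 0.14 (adjusted p = 0.0210), but only 1 of its 2 probes was above background on each Control array. The related genes went both ways, since Sulf1 had a log2 fold change of -0.54 (adjusted p = 0.0519) and Sdc4 of -0.56 (adjusted p = 0.0783), neither of them called. The median of the list was -0.04.

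In the list of adaptors and of the Ras, ERK and lipid kinase cascades, 21 of 28 genes were tested, with 1 elevated, 1 reduced and a median of -0.14. Crkl, an adaptor that binds tyrosine-phosphorylated docking proteins, had log2 signals of 7.10 and 7.05 in cKO and 7.68 and 7.76 in Control lenses, a log2 fold change of -0.64 ± 0.14 (adjusted p = 0.0298). Pik3ca, a catalytic subunit of a lipid kinase, is the 1 elevated gene. It was above background in cKO lenses only, which alone brought it into the test, and its cKO mean was at least 1.14-fold higher (adjusted p = 0.0467). Ptpn11, a phosphatase that FGF receptors need to activate Ras, passed the adjusted p (0.0467) with a log2 fold change of -0.54, under the fold needed for a call.

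Among the other feedback genes, 7 of 15 were tested, the median was 0.03 and 1 was called. Rasa1, which speeds the inactivation of Ras, rose by 0.66 ± 0.15 (adjusted p = 0.0335), from 8.70 and 8.58 in Control to 9.20 and 9.39 in cKO lenses. It was called in none of the 4 fits that left out 1 array (adjusted p from 0.0513 to 0.227). Spry4, a sprouty gene above background in cKO lenses only, was at least 1.13-fold higher there and was not called (adjusted p = 0.0600). Among the other ETS factors, 8 of 10 were tested, the median was 0.09 and 1 was called. Gabpa, a broadly used ETS activator, fell by 0.96 ± 0.14 on the log2 scale (adjusted p = 0.0119), from 6.15 and 6.19 to 5.30 and 5.13. Etv1, a close relative of Etv4 and Etv5, had a log2 fold change of -0.16 (adjusted p = 0.501).

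These calls depended on single arrays. Of the 4 fits that left out 1 array, Fgf13, Sdc1 and Crkl were called in 1 (without Control A), and Glce, Sulf2 and Gabpa in 2 (without cKO A and without Control A). Pik3ca could be tested in 2 of them and was called in neither. Without Control B none of 62 pathway genes was called by limma, although 22 had an unadjusted p under 0.05, and without cKO B only Fgfrl1 was called among 59. Without cKO A 4 of 58 were called, and without Control A 10 of 63. The count of calls over all genes fell alike, to 170 without Control B and 163 without cKO B.

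**Figure D4:**
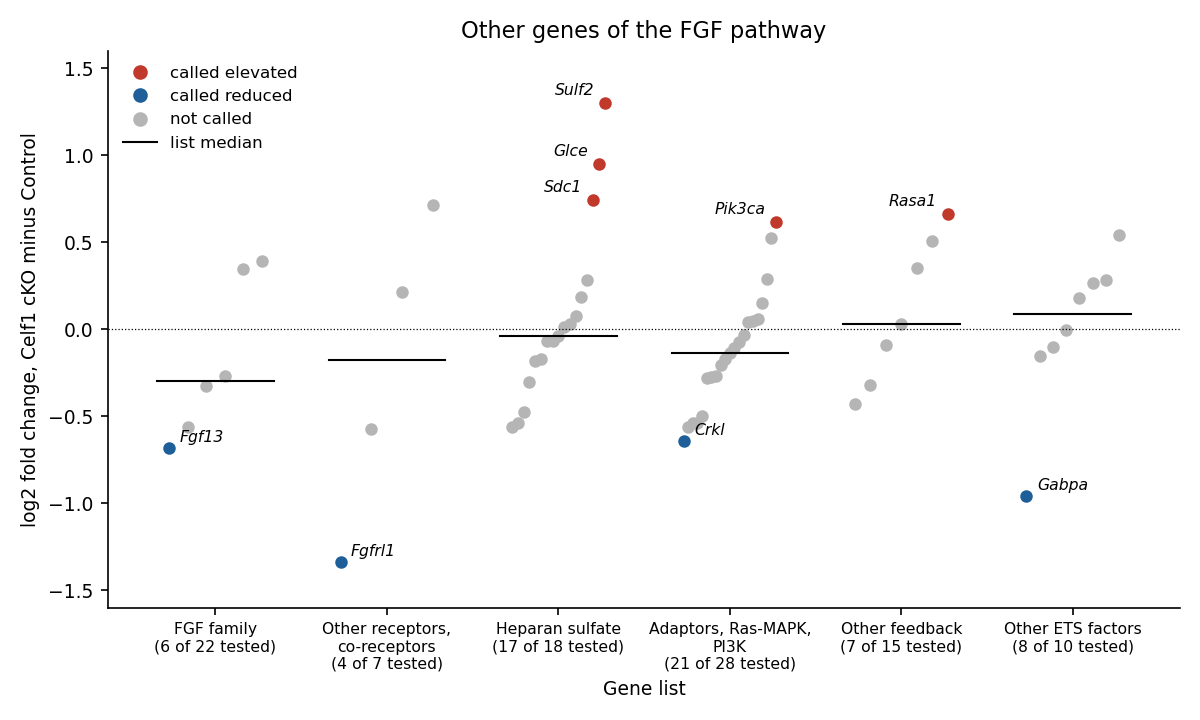
Log2 fold change of Celf1 cKO against Control (vertical axis) for the 63 tested genes of the 6 pathway lists (horizontal axis), each list sorted by value, with red for calls of elevated and blue for calls of reduced signal, grey for no call and a black line for the median of the list. The 3 called heparan sulfate genes are elevated, and Fgfrl1 at -1.34 is the lowest of the 63 genes.

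The tested genes whose pattern over the 4 arrays was most like that of Fgfr3 were Prickle1 and Mgrn1. Prickle1 lay at a distance of 0.0714 from Fgfr3 in log2 values centred on their mean (Pearson r = 0.998 over 4 arrays), and Mgrn1 at 0.0798 (r = 0.997). Prickle1 had log2 signals of 8.49 and 8.13 in cKO and 9.13 and 9.47 in Control lenses. With 4 arrays such patterns are common, and 699 genes lay within a distance of 0.5 of Fgfr3.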

How the data were processed

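The authors deposited tables of unnormalized and of rank-invariant normalized signal intensity for 45281 probes, and beside each intensity the deposited detection p-value, which ranks the probe against negative control beads. Here 45263 probes were used, since 18 lines had shifted cells. Starting from the unnormalized intensity, background was corrected with nec of limma (version 3.58.1, R version 4.3.3; negative controls inferred from the detection p-values, offset 16), followed by quantile normalization and log2. Probes with a detection p under 0.05 on at least 2 arrays were retained (16262), and the log2 values of a gene's retained probes were averaged. The difference between the groups was tested two-sided with limma (lmFit, then eBayes), and p-values were adjusted by Benjamini-Hochberg across the 11516 genes, or across the retained probes for single probes. The thresholds follow the study's methods. The authors applied edgeR, a count model, which was not used because the values are intensities. For a gene above background in only 1 group, the fold is a bound against the lowest signal of detected probes.

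Samples were grouped by the genotype in the labels. The 10 genes, the lists and the tests were chosen with earlier results of these data known. The named genes are the 10 members, every called gene of the lists, the 2 genes nearest to Fgfr3, Celf1, Xist and Ddx3y; any other gene was picked for naming with its value in view. Genes were named through a RefSeq table of assembly GRCm38.p6 (matched probes: 29586 through the Entrez identifier, 2759 through an accession, 2197 through the symbol, 2377 through a former symbol; 8344 others kept their own). Tables were read with Python version 3.11.15. The fits were tested on simulated data. Alternatives covered the table, background correction, scaling, detection filter, probe rule, variance model, minimum signal, replicate block and leaving out each array. Precision is limited by 2 arrays in each group, with which an exact permutation test cannot give a p below 0.333. Whether the letters A and B pair the arrays is not in the labels. The correlation across genes of A minus B between the groups was -0.01, which cannot settle it, and the arrays were fitted as unpaired.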

Additional observations from a re-analysis of the deposited data

How the results depend on the processing

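Fgfr3 kept its negative log2 fold change in all 19 alternatives and its call in 13. It was not called with the deposited normalized table (-1.25), without scaling (-0.32), with equal medians of all probes (-0.36) or without the detection filter (-0.98), and leaving out 1 array gave -1.12 to -0.80. The number of members called, 1, became 0 with the deposited normalized table and without the detection filter (2 and 3 at an unadjusted p under 0.05), 4 without scaling and 4 with equal medians of all probes, and 0 to 1 on leaving out 1 array. The 9 called pathway genes became 0 with the deposited normalized table (limma, 23 at an unadjusted p under 0.05), 5 without background correction, 4 with an offset of 50, 29 without scaling, 26 with equal medians of all probes, 15 with equal medians of detected probes, 1 without the detection filter, 4 with a minimum signal of 6, and 0 to 10 on leaving out 1 array. Signs turned for Fgfr1 with equal medians of detected probes (-0.19), for Fgfr2 and Etv5 without scaling (both 0.56) and with equal medians of all probes (both 0.52), for Fgfr2 on leaving out 1 array (-0.14 to 0.028), and for Frs2 likewise (-0.094 to 0.24). The median of all genes was 0.57, 0.53 and -0.19 without scaling and with equal medians of all and of detected probes. Over all genes, 1341 calls became 7 with the deposited normalized table, 789 with an offset of 50, 5788 without scaling, 5417 and 2690 with equal medians of all and of detected probes, 207 without the detection filter, 879 with a minimum signal of 6, and 163 to 1364 on leaving out 1 array. With the replicate letter as a block, Fgfr3 had a log2 fold change of -0.98 (limma, adjusted p = 0.00690). The members called stayed at 1 and the pathway genes at 9, and all genes called rose to 1685. The labels do not say whether the letters stand for pairs. The cause of these shifts was not tested.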
